A study of Raphidocelis subcapitata with 45 samples.

Results

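This account covers the lowest exposures of a sertraline concentration series in the green alga Raphidocelis subcapitata, a single-celled freshwater species that is a standard test organism in ecotoxicology. The exposed side held 10 libraries, replicates A to E at a nominal 50 µg/L and A to E at 125 µg/L of sertraline hydrochloride. The other side held 5 solvent control libraries, also lettered A to E. They were chosen by the concentration in their labels, and together make 15 of the 41 libraries with values. All came from the same stock (labelled Carolina Biological), taken in exponential growth and exposed for 24 h in deep-well plates, with homogenates of replicate plates pooled before RNA extraction. The solvent was present in the controls too. Its content is not given here because the design text and the treatment protocol state different values. No label names separate cultures, so the p-values below rest on variation among libraries that may be technical.

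Sertraline is an antidepressant that blocks the serotonin transporter of animal neurons. It is a cationic, amphiphilic molecule, and drugs of this kind are known to partition into membranes and to gather in acidic compartments of cells. Green algae have no nervous system, and its toxicity to algae has been studied mainly through growth and photosynthesis. The question here is whether transcript levels already departed from the solvent control at the bottom of the series, and whether any departure was shared by the libraries or rested on 1 of them.

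The deposited table gave 7291 genes by identifier as normalised expression on a log scale, read as log2, and no product names were used here. Photosynthesis, antioxidant and other gene groups were therefore not examined, the identity of the cells was not checked against marker genes, and genes are named only by identifier. Library medians of the 15 libraries lay between 4.56 and 4.60, their pairwise Pearson correlations across genes between 0.951 and 0.975, and the read depth behind them is unknown.

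The library labelled 125 µg/L replicate B (125 B) lay nearer to the 314 and 784 µg/L libraries than to its own group. Over all genes it lay at a root mean square log2 distance of 0.335 from the mean of the other 4 libraries at 125 µg/L and of 0.356 from the control, against 0.283 from the 314 µg/L and 0.291 from the 784 µg/L libraries, each taken as means of 4. It was the only one of the 15 libraries whose nearest group mean was above 125 µg/L. Being nearest to another group was not particular to it: of the 15 only 50 E, 125 A and 125 E lay nearest to their own. Nor was its distance from its own group the largest, with 0.352, 0.349 and 0.337 in controls A, C and E. Libraries 50 A and 50 B were also slightly nearer to the 314 µg/L mean than to their own, at 0.321 against 0.323 and 0.280 against 0.281. Their nearest group means were the control for 50 A and 125 µg/L for 50 B. The single libraries nearest to 125 B were 314 D, 784 C, 314 E and 314 C, and 7 of the 10 nearest to 125 B were from 314 or 784 µg/L. That number was 3 each for 125 C, D and E, 4 each for 50 A and 50 B, and between 0 and 2 for the other 9 of the 15. The 5 libraries labelled 314 µg/L and the 5 labelled 784 µg/L each lay nearest to their own group. Some margins were small: 314 D lay 0.287 from its own group and 0.296 from 125 µg/L. Most of the 125 µg/L means used for these distances include 125 B. The main counts, intervals and medians over groups that include 125 B are given below with and without it. Some values of single genes and the alternative fits are given only with it. The reason for its position was not tested.

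**Figure D1:**
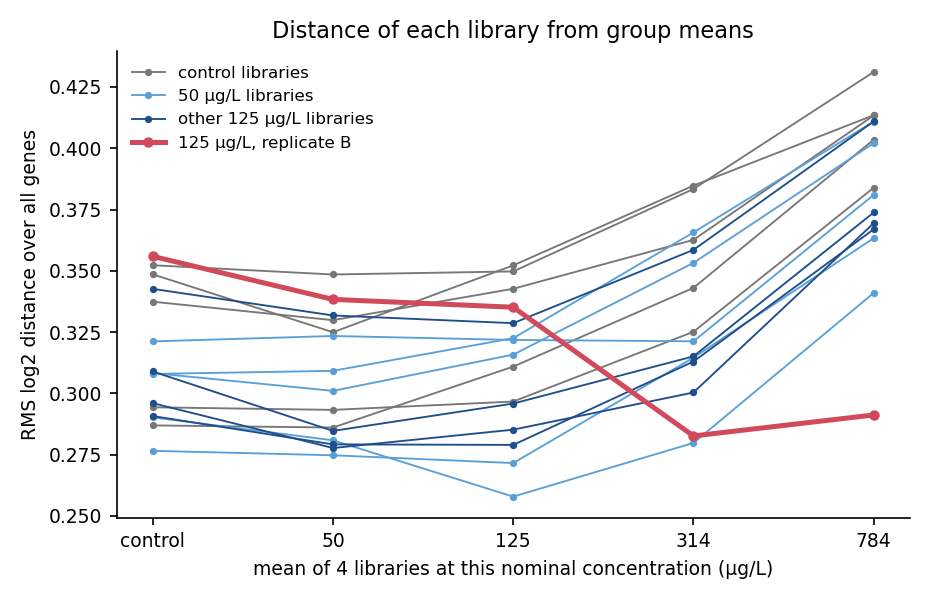
Root mean square log2 distance over 7291 genes (y axis) of each control, 50 and 125 µg/L library from the mean of 4 libraries of each group from control to 784 µg/L (x axis), a library never being part of the mean it is compared with. The line of 125 B falls to 0.283 at 314 µg/L and 0.291 at 784 µg/L, whereas the other 14 libraries are farther from 784 than from 125 µg/L.

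No gene passed the threshold between the 10 exposed and the 5 control libraries. In limma's moderated test on these 15 libraries 0 of 7291 genes (0%) passed an adjusted p of 0.05, and the lowest adjusted p was 0.492. Before adjustment, p was under 0.05 for 279 genes that were higher and 280 that were lower with exposure, together 7.67% of the table. The log2 changes were small. Their median was -0.01, with quartiles of -0.10 and 0.10 and extremes of -0.99 and 0.67. Only 22 genes were 0.5 or more above the control and 33 were 0.5 or more below it, on the log2 scale. Without 125 B limma called 0 genes (0%), with a lowest adjusted p of 0.134, 263 genes higher and 261 lower before adjustment, and 23 genes 0.5 or more away from the control in each direction.

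The precision limits what could have been missed. The median half-width of a gene's 95% interval was 0.29 on the log2 scale. For 5552 genes (76.1%) the whole interval lay within 0.5 of no change, and for 7266 (99.7%) within 1. For 25 genes the interval reached a log2 change of 1 in at least one direction. Without 125 B the interval lay within 0.5 for 5477 genes (75.1%) and reached 1 for 15. These intervals assume log2 values as deposited, and a transform that pulls weakly measured genes towards their mean would understate their changes.

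Taken apart, neither concentration gave a call in the fit of these 15 libraries with a mean per concentration. At 50 µg/L 0 genes (0%) passed in limma's test (lowest adjusted p = 0.637), with 181 genes higher and 148 lower at an unadjusted p under 0.05. At 125 µg/L 0 genes (0%) passed as well (lowest adjusted p = 0.144), with 289 higher and 318 lower at that level. Without 125 B the 125 µg/L comparison gave 0 genes (0%) in limma's test (lowest adjusted p = 0.337), with 271 higher and 300 lower. A log2 change of 1 or more was reached by 0 genes at 50 µg/L and by 2 at 125 µg/L, both of them lower, and without 125 B by 0 at 125 µg/L in either direction. The direct contrast of 125 with 50 µg/L also gave 0 genes (0%), with a lowest adjusted p of 0.996 and 292 genes at an unadjusted p under 0.05, or 0.998 and 262 without 125 B. The 125 µg/L result was sensitive to which libraries entered limma's test, and to fitting the replicate letters as a block, given at the end. With the 314 and 784 µg/L libraries added to the fit it called 1 gene, Rsub_00682 (limma adjusted p = 0.0249). Leaving out control D, control E or 50 B called 1 gene each and leaving out 125 E called 2, all of them lower. In that order they were Rsub_01505, Rsub_03879, Rsub_00682, and again Rsub_00682 with Rsub_01505. Each of these fits kept 125 B. All are among the 51 genes (0.699% of the table) that fall at 314 µg/L, described below, a list called against the same controls and so not independent of these calls.

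The first principal component of the 15 libraries held 11.6% of the variance and did not separate exposure from control. Its score was -1.98 ± 8.28 (SD, n = 10) in the exposed libraries and 3.95 ± 6.68 (SD, n = 5) in the control, with p = 0.190 in a two-sided exact permutation test over 3003 assignments, and 0.381 after Benjamini-Hochberg adjustment over 3 components. The most negative score was that of 125 B. Without it the score was -0.58 ± 6.64 (SD, n = 9) in the exposed libraries and 1.04 ± 11.4 (SD, n = 5) in the control (exact permutation p = 0.703 over 2002 assignments). The median SD of a gene was 0.24 among the control libraries, 0.22 at 50 µg/L and 0.22 at 125 µg/L, or 0.21 at 125 µg/L without 125 B, so the groups were about equally tight.

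**Figure D2:**
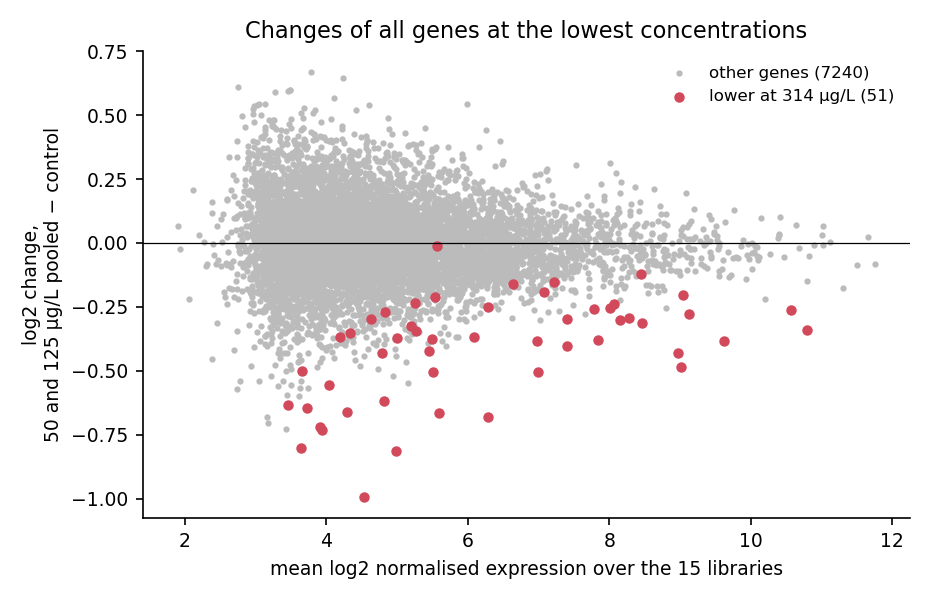
Log2 change of each gene, 50 and 125 µg/L pooled minus control (y axis), against its mean log2 expression over the 15 libraries (x axis). Changes run from -0.99 to 0.67, and the 51 genes that fall at 314 µg/L (red) lie in the lower part of the cloud with a median of -0.37.

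The 4 genes with the lowest p in the pooled comparison, 2 higher and 2 lower, show what the strongest candidates look like. None passed the threshold in this fit, and limma's adjusted p was 0.492 for each. They were chosen by p in this same comparison, so their differences, intervals and separation from the controls may be overstated. Their function is not given by the identifiers.

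Rsub_10354 had log2 values of 4.55, 4.23, 4.28, 4.22 and 4.80 in libraries A to E at 50 µg/L, followed by 4.88, 4.29, 4.40, 4.58 and 4.31 at 125 µg/L, against 3.74, 4.29, 3.45, 3.62 and 3.93 in the control. Control B overlapped with the exposed libraries and the other 4 controls lay below all 10 of them. The log2 difference was 0.65 ± 0.15 (SE), with a 95% interval of 0.34 to 0.95, which is 1.57-fold if the base is 2. The concentrations taken apart gave 0.61 (50 µg/L) and 0.69 (125 µg/L), and without 125 B the pooled difference was 0.67.

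Rsub_07633 had log2 values of 6.56, 6.04, 6.18, 6.27 and 6.02 at 50 µg/L, followed by 6.37, 5.61, 6.13, 6.52 and 6.02 at 125 µg/L, against 5.99, 5.49, 5.74, 5.90 and 5.04 in the control. Of the exposed libraries 9 lay above all controls, and 125 B alone lay among them. The log2 difference was 0.54 ± 0.13 (SE), and 0.60 ± 0.12 (SE) without 125 B, where the limma adjusted p was 0.134.

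Rsub_01505 had log2 values of 4.06, 4.50, 4.26, 4.58 and 4.80 at 50 µg/L, followed by 3.97, 2.74, 4.42, 4.10 and 4.58 at 125 µg/L, against 4.81, 5.32, 5.20, 4.45 and 6.19 in the control. All 10 exposed libraries lay below 4 of the 5 controls, and control D overlapped with them. The log2 difference of -0.99 ± 0.23 (SE) was the lowest of the table, and it was -0.83 ± 0.18 (SE) without 125 B. Both 125 B at 2.74 and control E at 6.19 stood well away from their groups.

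Rsub_00682 had log2 values of 8.83, 8.48, 9.37, 9.16 and 9.27 at 50 µg/L, followed by 8.76, 8.15, 8.72, 8.74 and 9.06 at 125 µg/L, against 9.30, 9.65, 9.16, 9.29 and 9.29 in the control. At 50 µg/L libraries C, D and E lay close to the controls and A and B below them, whereas at 125 µg/L all 5 lay below every control. The log2 difference was -0.31 at 50 µg/L and -0.65 at 125 µg/L (limma adjusted p = 0.997 and 0.144), and the contrast of 125 with 50 µg/L, -0.34 ± 0.13 (SE), did not pass (limma adjusted p = 0.996). Pooled, it was -0.48 ± 0.12 (SE), and -0.41 ± 0.10 (SE) without 125 B.

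At higher concentrations the 4 genes took different courses. In the fit of all 41 libraries, which uses the same controls, Rsub_01505 fell by 1.85 at 314 µg/L and fell by 2.52 at 784 µg/L on the log2 scale (limma adjusted p = 2.18e-05 and 1.85e-09), and Rsub_00682 fell by 1.02 and fell by 1.05 (limma adjusted p = 0.000445 and 9.33e-05). At these concentrations Rsub_10354 differed from the control by 0.63 and 0.46, short of the threshold (limma adjusted p = 0.272 and 0.387), and it rose by 0.73 at 12249 µg/L and by 1.26 at 30623 µg/L (limma adjusted p = 0.0110 and 1.86e-05). Rsub_07633 was at 0.23 above the control at 314 µg/L and at -0.36 at 784 µg/L (limma adjusted p = 0.996 and 0.661), and it fell by 0.91 at 4900 and fell by 1.32 at 12249 µg/L (limma adjusted p = 0.00167 and 5.90e-05). The highest exposure, 30623 µg/L, left Rsub_07633 at 0.10 above the control (limma adjusted p = 0.768).

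**Figure D3:**
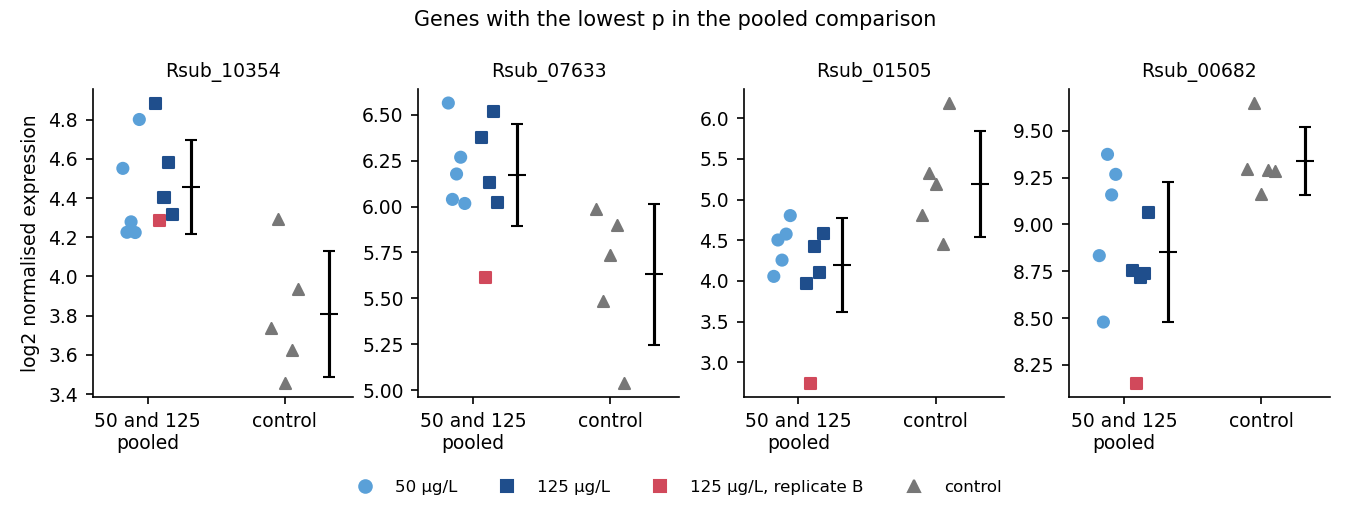
Log2 expression of the 4 genes with the lowest p in the pooled comparison, in the 10 libraries at 50 µg/L (circles) and 125 µg/L (squares, replicate B in red) and in the 5 control libraries (triangles), with the mean and SD of each side. For Rsub_01505 the value of 125 B is 2.74, against 3.97 to 4.80 in the other 9 exposed libraries, and in all 4 genes at least 1 exposed library overlaps with the controls.

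The genes that respond at the next step up the series were used to place each library. In the fit of all 41 libraries 51 of 7291 genes (0.699%) fell at 314 µg/L, and these 51 also fell at 784 µg/L, where 159 genes fell in all. The median of their control means was 6.03 on the deposited log2 scale, which is not per length, with 4.58 over all genes. Their median SD among the controls was 0.41, with 0.24 over all genes. Because the list was called against the same 5 controls, the distance of exposed libraries from the controls over it is not independent of how it was chosen, and no test was made on it.

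Over these 51 genes the median log2 difference from the control mean placed 125 B with the 314 and 784 µg/L libraries. The library medians were 0.03, 0.17, -0.06, 0.04 and -0.32 in control libraries A to E. They were -0.61, -0.54, 0.09, -0.02 and 0.02 at 50 µg/L, followed by -0.26, -1.46, -0.27, -0.37 and -0.27 at 125 µg/L. At 314 µg/L they ran from -1.38 to -1.14, and at 784 µg/L from -1.67 to -1.41. So 125 B lay below all 5 libraries at 314 µg/L, and 50 C, D and E were among controls A to D. Libraries 50 A and B and the other 4 at 125 µg/L lay between control C and the 314 µg/L group. The median of control E also fell there, but its genes were split, as described below. Its quartiles were -0.57 and 0.96, so its median does not make these libraries alike.

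**Figure D4:**
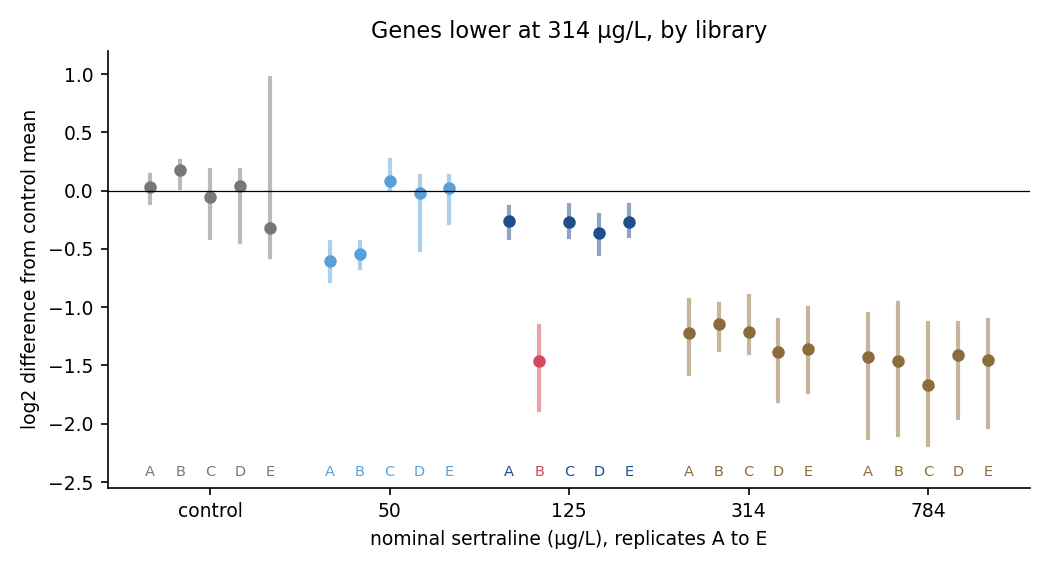
Log2 difference from the control mean over the 51 genes that fall at 314 µg/L (y axis) in each library from control to 784 µg/L (x axis). Points are medians over genes and bars their quartiles. The library 125 B is at -1.46, within the range of the 784 µg/L libraries, and the other 4 at 125 µg/L are between -0.37 and -0.26.

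Part of the difference from the controls over this list remained without 125 B. The list was called as lower than these same controls, so a value below 0 is favoured by that choice and was not tested. The median log2 change of the 51 genes was -0.37 for the pooled exposures, with -0.01 over all genes, and -0.24 without 125 B. At 125 µg/L it was -0.52, and -0.27 without 125 B. At 50 µg/L it was -0.20, and -0.10 both without 50 A and without 50 B, so there it depended on these 2 libraries. Without control E the pooled value was -0.40.

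Neither side of the contrast of 125 with 50 µg/L was part of the contrast of 314 µg/L with control, although these libraries entered the estimate of spread in the fit of 41 that called the list. Over the list the shift between 125 and 50 µg/L was nearly gone without 125 B. With all libraries 49 of the 51 genes were lower at 125 than at 50 µg/L, with a median of -0.29, against 49.8% of all genes with a median of 0.00. Without 125 B 32 of the 51 were lower, with a median of -0.04 and quartiles of -0.14 and 0.06. The 50 µg/L side was itself lowered by 50 A and 50 B, with library medians of -0.61 and -0.54. With 125 B kept, the median was -0.37 without 50 A and -0.35 without 50 B. A list of 126 genes that fall when the 314 µg/L and control libraries are fitted alone had a median of -0.19, with 113 lower, and without 125 B of -0.04, with 81 lower. The 159 genes that fall at 784 µg/L gave -0.15 with 125 B and -0.01 without it. The 54 genes that rise at 784 µg/L gave 0.08 and 0.02.

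**Figure D5:**
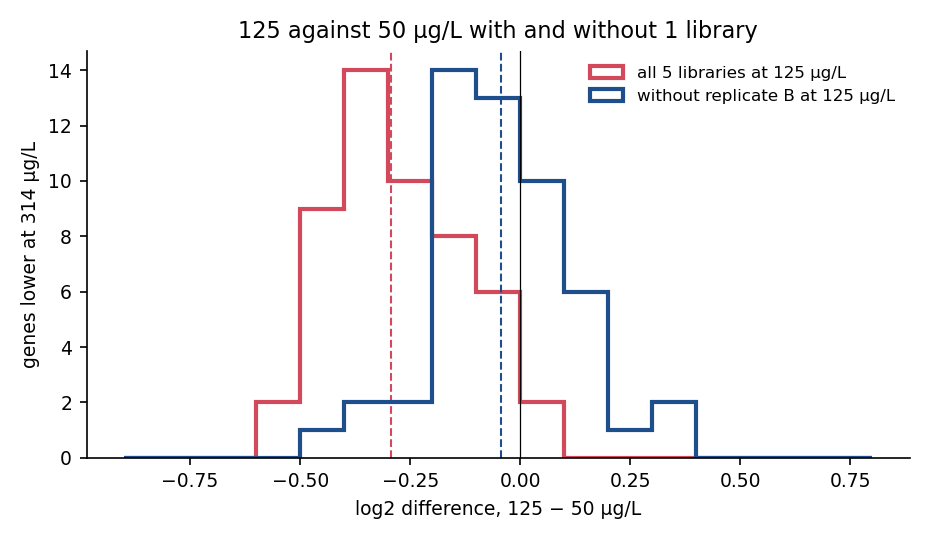
Number of the 51 genes that fall at 314 µg/L (y axis) by their log2 difference between 125 and 50 µg/L (x axis, bins of 0.1), with all 5 libraries at 125 µg/L (red) and without replicate B (blue). Dashed lines are the medians, -0.29 and -0.04.

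The departure of 125 B from its own group went well beyond that of any other exposed library over these genes. Set against the mean of the other 4 at 125 µg/L, its median over the 51 genes was -1.21, and all 51 were lower. Over the 126 genes from the 314 µg/L and control libraries alone it was -0.79, with 123 lower. Over the 51 genes the same measure was -0.47 for 50 A and -0.36 for 50 B, and 0.18 to 0.44 for the other 7 exposed libraries. For 125 A, C, D and E the mean of the other 4 includes 125 B, which lowers it and raises their values. In 49 of the 51 genes 125 B was the lowest of the 15 libraries, whereas over all genes it was the lowest in 8.24% and control A in 9.90%.

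In 125 B 94 genes (1.29% of the table) lay 1 or more below the mean of the other 4 at 125 µg/L. Only 3 lay 1 or more above it. In the other 14 libraries, set against their own groups, the number below was between 5 and 44. The number above ran from 2 in control D to 62 in control E, with 41 in control C. What set 125 B apart was thus the number below, not the number above. For 125 A, C, D and E the group mean used here includes 125 B. Of the 94 genes 32 were among the 51, which is 34.0% of the 94 and 62.7% of the 51, and 55 were among the 159 that fall at 784 µg/L, 58.5% of the 94 and 34.6% of the 159. The other 39 were on neither list. Genes that rise at 784 µg/L were displaced as well: over the 54 of them 125 B had a median of 0.41 above the control mean, against 0.08 to 0.18 in the other 4 at 125 µg/L, 0.04 to 0.15 at 50 µg/L and -0.06 to 0.11 in the control. It was the highest of the 15 libraries in 28 of the 54, and each other library was in at most 6. Over all genes 125 B was the highest in 7.56% and control C in 11.1%.

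The controls themselves were split over the 51 genes. In control E 18 of them stood 0.67 to 1.42 above the control mean, and the other 33 stood between -0.85 and -0.05 from it, a gap seen only after the values had been examined and therefore given without a test. Over the 33 genes the library medians were 0.04, 0.20, 0.16 and 0.16 in controls A to D and -0.51 in control E. At 50 µg/L they were -0.55, -0.53, 0.18, 0.08 and 0.08, so that 50 A and B stood beside control E and 50 C, D and E beside the other controls. At 125 µg/L they were -0.26, -0.24, -0.31 and -0.20 in A, C, D and E, between the 2 levels, and -1.20 in B.

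Over the 18 genes high in control E the control medians were -0.04, 0.04, -0.47, -0.63 and 1.05. This spread is widened by the choice of the genes for their value in control E. Those at 50 µg/L were -0.82, -0.58, 0.01, -0.55 and -0.37, and those at 125 µg/L -0.36, -2.00, -0.37, -0.46 and -0.39. Apart from 50 A and 125 B, the exposed medians lay between the lowest and highest control medians. Because the choice of genes widened that range, no conclusion is drawn from it. The gene Rsub_01505 belongs to the 18, and its -0.99 against the control becomes -0.74 when control E is left out.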

How the data were processed

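The authors deposited 1 table of normalised values for 7291 genes and 41 libraries. The deposited values were normalised by the authors and put on a log scale, taken here to be log2. The sources used here do not give the transform, log base, gene filter, genome build or depth. The submitters' processing notes name DESeq2, featureCounts 2.0.6, STAR 2.7.10a (an aligner), bcl2fastq 2.20.0, SAMtools 1.15.1 and fastp 0.23.2, without an order. The labels list 4 further libraries, not analysed here. Libraries were mapped by name.

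Without filter or pseudocount, limma 3.58.1 (R 4.3.3; lmFit and eBayes with an intensity trend) was fitted to the 15 libraries, as 10 exposed against 5 control for the pooled comparison (13 residual and 21.1 prior degrees of freedom) and with a mean per concentration for 50, 125 and their contrast. Tests were two-sided and p-values were adjusted by Benjamini-Hochberg over all genes. Lists for 314 and 784 µg/L came from a fit of all 41 libraries, and the list of 126 from 314 µg/L and control alone. The genes named are the 2 higher and 2 lower with the lowest pooled p. Alternatives were another scaling, weighting, filter, prior, set of libraries in the fit, a replicate block and leaving out each library. Scripts were tested on simulated data. Libraries, lists and contrasts were chosen with earlier results of these data known, and the medians for 125 minus 50 µg/L, the intervals and component without 125 B and the split by control E after seeing the values. Figures used Python 3.11.15 and matplotlib 3.10.9.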

Additional observations from a re-analysis of the deposited data

Results flagged for a closer look

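In 30 groups of 5 values examined, 3 held a single library far from the other 4, where chance alone flags about 1.5. The library 125 B had a median of -1.46 over the genes that fall at 314 µg/L, against -0.37 to -0.26 in the others at 125 µg/L. Over the genes that fall at 784 µg/L its median was -0.85, against -0.21 to -0.16. The lists overlap, so these are not separate signs. Control B had a log2 value of 9.65 for Rsub_00682, against 9.16 to 9.30 in the other controls.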

How the results depend on the processing

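The number of genes called was 0 in each of the 25 alternatives for 50 µg/L and for 125 against 50 µg/L. For the pooled comparison it was 0 in 24 of 25 and 1 with the replicate letter as a replicate block (Rsub_07633, limma adjusted p = 0.0415). For 125 µg/L it was 0 to 2 when single libraries were left out, 3 with the replicate block and 1 with the groups up to 784 µg/L in the fit. The 3 were Rsub_00682, Rsub_01505 and Rsub_03879, all lower (limma adjusted p = 0.0190, 0.0190 and 0.0428). The letters did not meet the bar for pairing, a correlation over 0.1 in every same-lettered pair: the deviations correlated between -0.14 and 0.17, over 0.1 in 5 of 15 pairs. Even so, 7 of 15 libraries were closest to one of their own letter, where 2 of the 10 libraries compared carry it, which is a hint towards pairing from the data, not the design. At an unadjusted p under 0.05 the fit of all 41 libraries gave 204 genes pooled, 91 at 50, 241 at 125 and 86 for 125 against 50 µg/L, against 559, 329, 607 and 292 in the fit of 15. The median over the genes that fall at 314 µg/L stayed between -0.42 and -0.24 pooled and between -0.37 and -0.04 for 125 minus 50 µg/L, the weakest value of both being that without 125 B. Read depth is unknown, and no limit from counts could be given.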
